A study of Arabidopsis thaliana with 6 samples.

Results

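Cytosolic ribosomal protein genes of Arabidopsis thaliana were followed across 6 ATH1 arrays, Affymetrix chips that read messenger RNA with sets of short probes. The starting list held 60 loci, 30 coding for 11 proteins of the large (60S) subunit and 30 for 12 proteins of the small (40S) subunit. A locus was kept if the platform annotation gave it a probe set that names no other gene, which 49 loci had, each of them with a single such probe set. A mean signal of at least 20 over the 6 arrays was then required, and 48 loci passed, 24 of the 60S subunit (10 proteins) and 24 of the 40S subunit (11 proteins). Over the whole array 13286 loci had a probe set of their own, and 12804 probe sets, named or not, passed the same minimum. All values below are array signals in the submitters' units, scaled so that the trimmed mean of each array is 100.0. Differences are on the log2(signal + 10) scale, which understates the difference of dim genes, the more so the dimmer the gene.

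Both groups were leaves of Col-0 plants and both carried the pad4-1 mutation in PAD4 (AT3G52430), which encodes a lipase-like protein that acts upstream of salicylic acid in defence. The 3 arrays called pad4 here came from pad4-1 alone, and the 3 arrays of the double mutant came from pad4-1 combined with the SALK_073354 insertion in EST1B (AT5G19400). EST1B acts in nonsense-mediated decay, which destroys messages whose reading frame ends too early. No wild type and no est1b single mutant was analysed here, so the comparison was made among plants that all carry pad4-1. The growth described was the same for all samples, 24 h of stratification and then 22 °C, with 2 weeks at high humidity and 3 weeks at lower humidity. The labels nevertheless give developmental stage 3.90 and plain "leaves" for pad4 replicates 2 and 3, against 5.10 and developed rosette leaves for the other 4 samples. Whether replicates were separate plants or cultures is not said, so a p-value here reflects the scatter among these samples alone, which may be technical.

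A cytosolic ribosome joins a 60S subunit, which forms peptide bonds, to a 40S subunit, which holds the messenger RNA. In plants each ribosomal protein is encoded by a small family of similar genes (paralogues), and a ribosome needs the product of 1 of them. Their messages are abundant in growing tissue and are known to be produced together, in step with growth and sugar supply. In Caenorhabditis elegans, the genes for L10a and L12 also give alternatively spliced transcripts that nonsense-mediated decay destroys. The probe sets used here read the total signal of a gene near its 3′ end and do not separate splice forms. The array annotation gives loci, and the protein names follow the standard Arabidopsis naming from general knowledge. No sequences were used here.

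The loci that could not be read were RPL6B, RPL6C, RPL9B, RPL9C, RPS3A, RPS3B, RPS23A and RPS23B, found only on probe sets listed for several genes, and RPL24A, RPL24B and RPS10B, with no probe set of their own listed. The L24 and S23 proteins therefore had no member, and RPL24B, known as SHORT VALVE1 for its part in flower development, was not measured. RPS8B (AT5G59240) was left out for its low signal, 4.60, 6.73 and 15.7 in the pad4 replicates 1 to 3 and 1.07, 4.36 and 14.8 in the double mutant. Its paralogue RPS8A (AT5G20290) had the highest mean signal of the members, 3835, and RPL7A the lowest, 68.7. Signals of different probe sets are not comparable as levels of messenger RNA, and detection calls were not given in the sources used here.

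Total signal per array ran from 3405664 to 3894818 and the members took 1.17% to 1.33% of it. Neither mutated locus has a probe set of its own, so the labels could not be checked against them. Of 20 leaf photosynthesis markers, 2 had one and both were bright, with LHCB4.2 (a chlorophyll-binding protein) at 8060 ± 805 in pad4 and 7774 ± 1837 in the double mutant and RCA (Rubisco activase) at 5963 ± 919 and 6644 ± 1286 (mean ± SD, n = 3 each). The root hair gene EXPA7, the single root marker that could be read, averaged 3.50 and 7.94. Markers of flowers, dividing cells and senescing leaves had no probe set of their own. RNA came from whole leaf tissue, so fewer cells of a type and less RNA per cell cannot be told apart.

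The comparison of the double mutant with pad4 asks whether loss of EST1B alters ribosomal protein messages. None of the 48 members was called different (limma, adjusted p under 0.05 over 12804 probe sets). The share called over the whole array was 0.0391% for higher and 0.0% for lower signal in the double mutant, so a count of 0 among the members says little about them. No member reached an unadjusted p under 0.05, where 4.44% of all probe sets did. The lowest unadjusted p of a member was 0.23 (RPL4D), with an adjusted p of 1.00 in limma. The signals of the genotypes overlapped for every one of the 48 members, while 6.41% of all probe sets were higher and 3.4% lower in the double mutant without overlap.

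Log2 fold changes of the members ran from -0.23 (RPS24A) to 0.34 (RPL4D), with a median of 0.00 beside 0.03 for all probe sets. They were less spread (SD 0.14) than those of all probe sets (SD 0.34), which include many dimmer ones. Of the 48, 25 were above 0 and 23 below, near the 54.6% above 0 among all probe sets. The 60S members had a median of 0.02, with 13 above and 11 below 0, and the 40S members had a median of -0.01, with 12 on each side. Standard errors were 0.23 to 0.45, so a small shift could not have been seen. The 95% intervals lay within -1 and 1 for 43 members, and the other 5, RPL7A, RPL7aA, RPL14A, RPL17A and RPS12C, reached past 1 in at least 1 direction. For 46 of the 48, the difference between genotypes was smaller than the SD among arrays of the same genotype. With stage as a covariate, a fit in which pad4 replicate 1 alone stands for pad4 at stage 5.10, the median of the members was 0.10 and none was called. The named members then ran from -0.78 (RPL7A) to 0.66 (RPL14A), RPS12C stood at 0.65, and RPL4D and RPL4A came to 0.04 and 0.08.

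**Figure D1:**
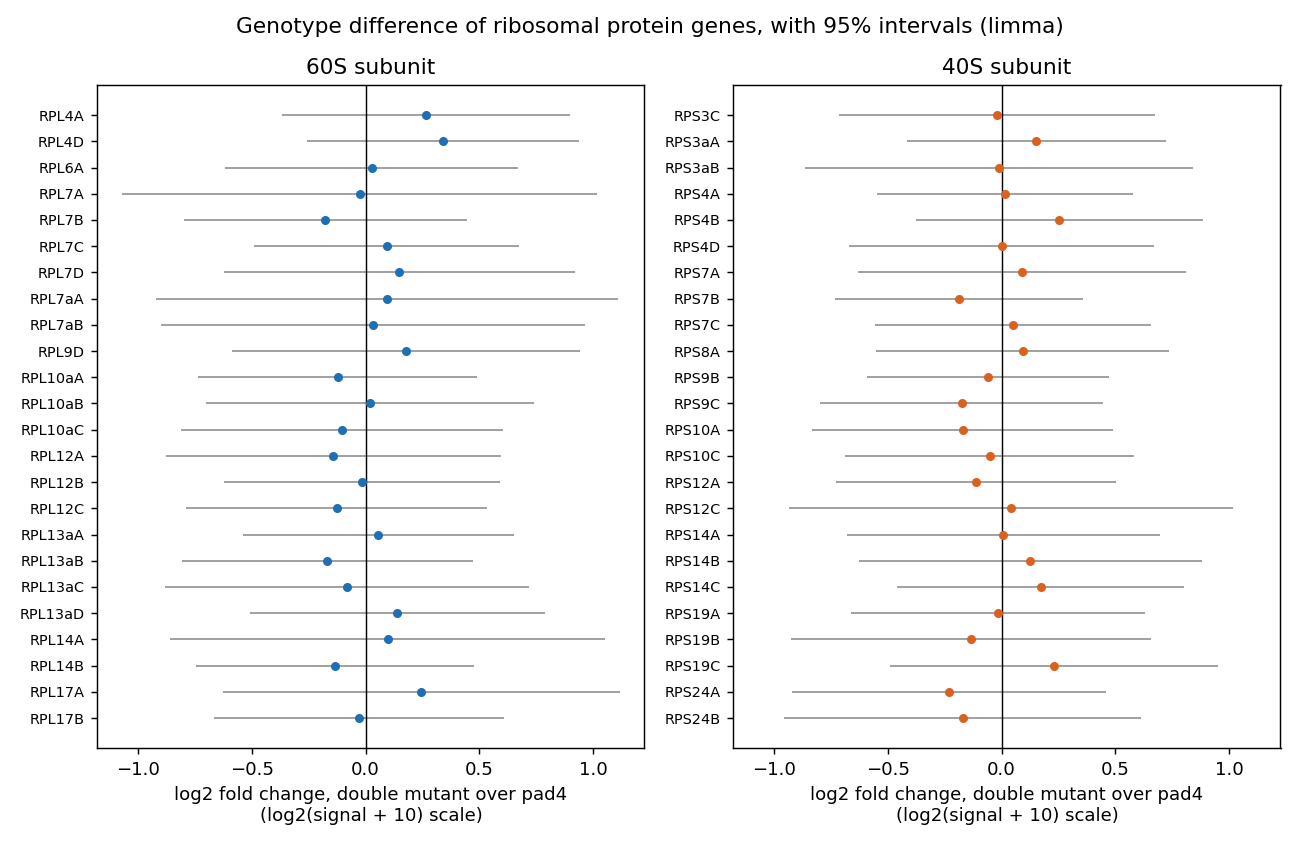
Log2 fold change (double mutant over pad4, x axis, log2(signal + 10) scale) of the 48 members, 60S on the left and 40S on the right, with points for the limma estimate and bars for its 95% interval (3 arrays per genotype). Every bar crosses 0, and the points lie between -0.23 and 0.34.

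Among the 60S members, the highest fold changes belonged to both genes of L4, a protein whose long loop lines the tunnel through which the new peptide leaves. RPL4D (AT5G02870) gave signals of 1047, 861 and 678 in the pad4 replicates 1 to 3 and of 1156, 1064 and 1015 in the double mutant, a log2 fold change of 0.34 (SE 0.26). RPL4A (AT3G09630) gave 851, 813 and 597 in pad4 against 768, 1121 and 838 in the double mutant (0.27, SE 0.28). In both genes pad4 replicate 3 was the lowest array, and the groups overlapped. RPL17A (AT1G27400), whose protein also lines the exit tunnel, read 421, 361 and 183 in pad4 against 445, 421 and 251 in the double mutant (0.24, SE 0.38). Its replicate 3 was the lowest array in both genotypes. RPL9D (AT4G10450) read 217, 258 and 370 in pad4 against 223, 311 and 439 in the double mutant (0.18, SE 0.33), with replicate 3 the highest array in both. RPL7B (AT2G01250) had the lowest 60S value, at 1279, 1659 and 1141 in pad4 against 1164, 1011 and 1424 in the double mutant (-0.18, SE 0.27). Its highest array was in pad4 and its lowest in the double mutant, but the other arrays were interleaved.

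The genes for L10a and L12 also lay close to 0. L10a builds the mobile stalk that helps spent transfer RNA to leave, and L12 sits at the base of the stalk that recruits translation factors. The log2 fold changes were -0.12 (SE 0.27) for RPL10aA (AT1G08360), 0.02 (SE 0.31) for RPL10aB and -0.10 (SE 0.31) for RPL10aC (AT5G22440). RPL10aB (AT2G27530), known as PIGGYBACK1 for its part in leaf patterning, read 778, 908 and 1388 in pad4 against 794, 1014 and 1266 in the double mutant (this gene was singled out after its values were seen). For L12 they were -0.14 (SE 0.32) for RPL12A (AT2G37190), -0.01 (SE 0.26) for RPL12B (AT3G53430) and -0.13 (SE 0.29) for RPL12C (AT5G60670). RPL12A read 1234, 1389 and 823 in pad4 against 1128, 734 and 1267 in the double mutant, with its lowest array at replicate 3 in pad4 and at replicate 2 in the double mutant. RPL12C read 527, 679 and 915 in pad4 against 545, 629 and 731 in the double mutant, lowest in replicate 1 and highest in replicate 3 of both. Each of these 6 intervals lay within -1 and 1, so a 2-fold change of the total signal was outside them, whereas the share of any splice form was not measured.

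Among the 40S members the outermost values were similar in size. RPS24A (AT3G04920) had the lowest value of all, with 453, 551 and 746 in pad4 against 369, 568 and 544 in the double mutant (-0.23, SE 0.30). Its paralogue RPS24B (AT5G28060) read 523, 855 and 1088 against 526, 794 and 813 (-0.17, SE 0.34). In both S24 genes pad4 replicate 3 was the highest array and a replicate 1 array the lowest. RPS10A (AT4G25740), for a protein of the beak of the 40S head, read 417, 463 and 633 in pad4 against 342, 465 and 535 in the double mutant (-0.17, SE 0.29), again with the replicate 1 arrays lowest.

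RPS7B (AT3G02560) came nearer to a separation, with 1287, 1491 and 1450 in pad4 against 1171, 1158 and 1383 in the double mutant (-0.19, SE 0.24). A single double mutant array, replicate 3, lay inside the pad4 range. RPS9C (AT5G39850), for a protein at the messenger RNA entry, was dim at 69.3, 90.8 and 71.8 in pad4 against 62.2, 54.1 and 88.1 in the double mutant (-0.18, SE 0.27). At the upper end, RPS4B (AT5G07090) read 506, 620 and 410 in pad4 against 517, 580 and 733 in the double mutant (0.25, SE 0.27). RPS19C (AT5G61170), for a protein of the 40S head, read 537, 511 and 435 in pad4 against 567, 406 and 843 in the double mutant (0.23, SE 0.31). Both high values came with a double mutant replicate 3 that stood above the other arrays.

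The steadiest and the brightest member showed no separation either (the 4 genes of this paragraph were chosen after their values were seen). RPS9B (AT5G15200), the paralogue of RPS9C, read 2483, 2571 and 2258 in pad4 against 2267, 2235 and 2508 in the double mutant, and its pooled SD of 0.09 was the lowest of the members. The median pooled SD over the 48 was 0.31. RPS8A read 2847, 3903 and 4426 in pad4 against 3221, 4523 and 4093 in the double mutant (0.09, SE 0.28), with the replicate 1 arrays lowest. RPL6A (AT1G18540) and RPS3C (AT5G35530), whose paralogues could not be read, had fold changes of 0.03 (SE 0.28) and -0.02 (SE 0.30). S3 lies where messenger RNA enters the 40S subunit.

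By replicate number the members differed by more. In 40 of the 48, the mean difference between replicates 3 and 1 (averaged over the genotypes) exceeded the log2 fold change in size. The fold change averages 3 arrays per group and so has less error. The same share over all probe sets is not given here, so this count does not set the members apart from them. Each difference between replicates of a genotype sets 1 array against 1, so there is no test. The replicate numbers are not stated to mark a shared day or batch. In pad4 the labelled stage also differs between these arrays, 5.10 in replicate 1 and 3.90 in replicate 3. All double mutant arrays are labelled 5.10. In pad4 stage and replicate number therefore cannot be told apart, and the replicate differences of the genotypes are not alike in this. In pad4 the median of replicate 3 minus replicate 1 was 0.11 for the members and -0.26 for all probe sets. In the double mutant it was 0.42 for the members and -0.07 for all probe sets. The members therefore lay 0.36 and 0.49 above the median of all probe sets on the log2 scale. This offset depends on the filter and the scaling. Without the filter on dim probe sets it was 0.16 (pad4) and 0.41 (double mutant), as the median of all probe sets moved to -0.05 and 0.01. After quantile normalization, it was -0.09 (pad4) and 0.15 (double mutant), and the members' medians were -0.08 and 0.21.

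Single members went both ways. Replicate 3 lay above replicate 1 for 25 members in pad4 (background 40.8%) and for 39 in the double mutant (background 46.2%). In pad4, 5 of the 48 were at least 1 lower on the log2 scale in replicate 3 than in replicate 1 (background 23.5%) and 3 at least 1 higher (background 9.61%). In the double mutant none was at least 1 lower (background 14.0%), and 2 were at least 1 higher (background 4.95%). Replicate 3 lay above replicate 1 in both genotypes for 25 members (background 34.6%) and below it in both for 9 (background 47.6%). The other 14 were lower in pad4 and higher in the double mutant, and none had the reverse pattern. By subunit, 16 of 24 members of the 40S and 9 of 24 members of the 60S subunit were higher in both genotypes. The median difference of the 40S members was 0.35 (pad4) and 0.47 (double mutant), and that of the 60S members was -0.25 (pad4) and 0.27 (double mutant).

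**Figure D2:**
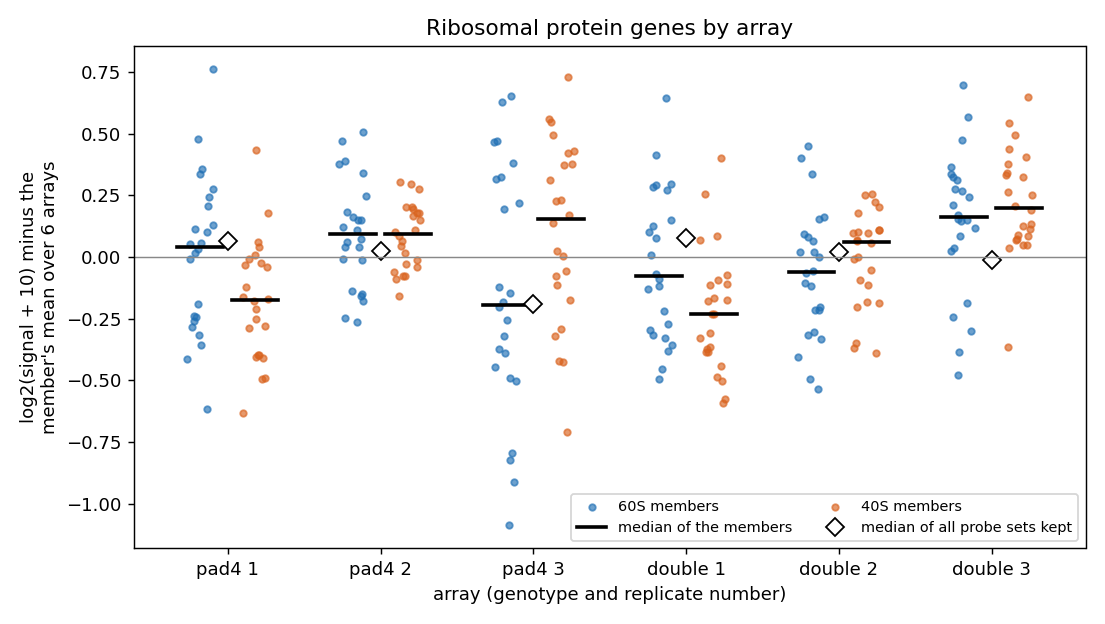
Deviation of each member from its own mean over the 6 arrays (y axis, log2 units) by array (x axis, genotype and replicate number). Bars are the medians of the 24 60S and the 24 40S members, and diamonds the median of all 12804 probe sets. In pad4 replicate 3 the 60S median is -0.19 and the 40S median 0.15.

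Array by array, the median deviation of the members from their own 6-array mean was -0.08, 0.09 and -0.03 in pad4 against -0.17, 0.00 and 0.18 in the double mutant. Replicate 3 of the double mutant was the highest of the 6 arrays for 15 members and the lowest for none. Replicate 3 of pad4 was the highest array for 14 members and the lowest for 15, so it held the extremes in both directions. Across the 48 genes, the replicate difference in pad4 and that in the double mutant, which share no array, correlated with r = 0.89 and rho = 0.85. Over all probe sets r was 0.81, and genes within an array are not independent.

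The arrays also differed in their controls. The spiked hybridisation control cre (3′ set), added to the labelled sample before hybridisation, read 4600, 5937 and 6492 in pad4 against 4513, 6848 and 6197 in the double mutant, which is 0.50 and 0.46 higher in replicate 3 than in replicate 1 on the log2 scale. The log2 ratio of 3′ to 5′ signal of GAPDH, a measure of RNA integrity and of labelling length, was 0.92, 1.15 and 1.86 in pad4 against 0.97, 1.64 and 1.53 in the double mutant. The 25S ribosomal RNA control read 21.3, 430 and 248 in pad4 against 35.9, 1356 and 728 in the double mutant. These 3 measures were lower in replicate 1 than in the other replicates of both genotypes. Not all controls rose. On the log2 scale, replicate 3 minus replicate 1 was -0.72 (pad4) and -0.53 (double mutant) for the actin 3′ set. It was -1.15 and -0.91 for the 3′ part of a second actin set, and -0.11 and 0.37 for the GAPDH 3′ set. The part of the controls in the differences between replicates was not tested.

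**Figure D3:**
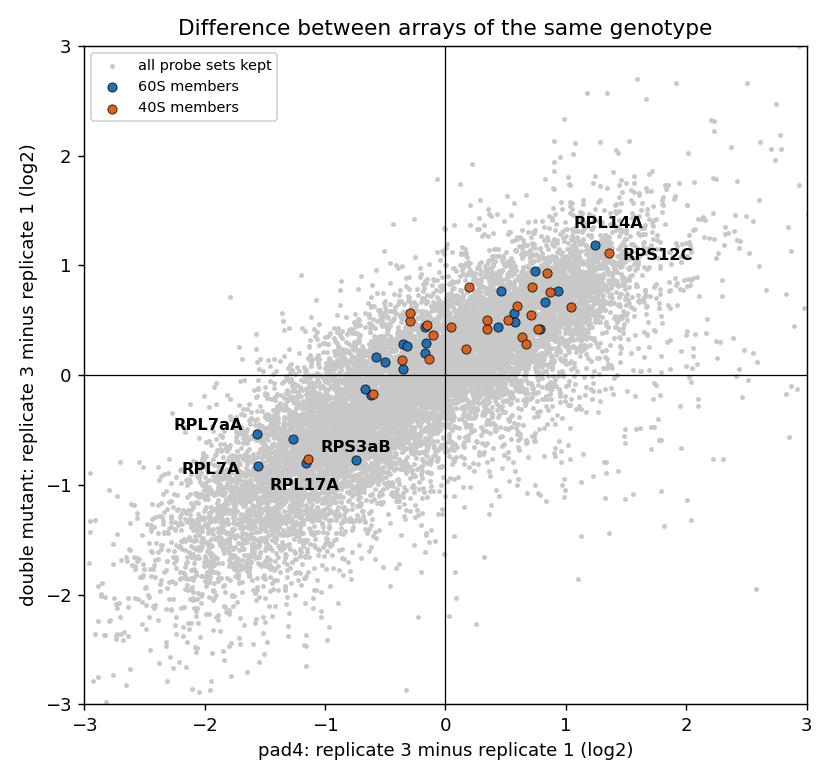
Replicate 3 minus replicate 1 on the log2(signal + 10) scale, in pad4 (x axis) and in the double mutant (y axis), for all probe sets (grey) and for the 60S and 40S members. The members spread from the lower left (RPL7A and RPL7aA) to the upper right (RPL14A and RPS12C). For 32 of the 48 members the value in the double mutant is above that in pad4. None lies above 0 in pad4 and below 0 in the double mutant, and 14 lie the other way. Outside the plotted range of -3 to 3 lie 48 probe sets, none of them a member.

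The members highest in replicate 3 were led by RPS12C (AT2G32060), whose protein lies in the beak of the 40S head. RPS12C read 268, 375 and 704 in pad4 against 279, 450 and 616 in the double mutant, a difference between replicates 3 and 1 of 1.36 and 1.12. RPL14A (AT2G20450), a 60S gene, read 92.9, 131 and 233 in pad4 against 102, 142 and 245 in the double mutant (1.24 and 1.19). Replicate 2 lay between the others in both genes and both genotypes. RPS19B (AT5G15520) read 104, 121 and 195 in pad4 against 81.9, 134 and 165 in the double mutant (0.84 and 0.93). RPL13aC (AT4G13170) read 277, 284 and 537 in pad4 against 244, 344 and 423 in the double mutant (0.93 and 0.77). The human counterpart of its protein can leave the ribosome to silence inflammatory messages. In both genes replicate 1 was the lowest array of its genotype and replicate 3 the highest.

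The members lowest in replicate 3 were RPL7A, RPL7aA, RPL17A and RPS3aB. RPL7A (AT1G80750) read 114, 66.7 and 32.0 in pad4 against 104, 41.7 and 54.0 in the double mutant, a difference of -1.56 and -0.83. RPL7A was also the single member at least 1 lower in replicate 2 than in replicate 1 of the double mutant (background 4.44%). RPL7aA (AT2G47610) read 878, 871 and 290 in pad4 against 769, 670 and 528 in the double mutant (-1.57 and -0.53). In pad4 its replicates 1 and 2 were alike and replicate 3 stood far below. RPL17A, whose signals are given above, differed by -1.16 and -0.80. RPS3aB (AT4G34670), for a protein near the point where messenger RNA leaves the 40S subunit, read 1606, 1458 and 721 in pad4 against 1568, 1142 and 920 in the double mutant (-1.14 and -0.76). It was the single 40S member at least 1 lower in pad4 replicate 3.

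Paralogues of the same protein were compared within arrays, by the log2 difference of a pair on each array, which leaves out any shift that both share. The 17 proteins with more than 1 member kept gave 39 pairs. With 3 arrays against 3, the exact permutation test over arrays cannot give a p below 0.1, and no pair passed after adjustment over the 39 (smallest adjusted p 0.95). The within-array difference did not overlap between genotypes in 1 pair of 39, against 3.95% of the 1089 pairs of members of different proteins. Fold changes of paralogues were no closer to each other than those of unrelated members, with a median absolute difference of 0.14 in both kinds of pair. In 8 of the 17 proteins all paralogues kept had a fold change of the same sign.

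The single pair without overlap was RPL13aB and RPL13aD. RPL13aB (AT3G24830) read 1427, 1701 and 2124 in pad4 against 1271, 1513 and 1887 in the double mutant, while RPL13aD (AT5G48760) read 196, 196 and 298 in pad4 against 202, 267 and 288 in the double mutant. Relative to its mean, the difference of the pair was 0.07, 0.33 and 0.06 in pad4 against -0.14, -0.27 and -0.06 in the double mutant, so that RPL13aB was lower relative to RPL13aD on every double mutant array. The genotype difference was -0.31 (SE 0.11, exact two-sided permutation p = 0.1, the smallest this design allows). RPL7B was lower relative to RPL7C by a similar size, at -0.27 (SE 0.11, exact p = 0.2), with 1 double mutant array above the lowest pad4 array.

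The pairs whose fold changes lay farthest apart otherwise had wide errors. RPS19B against RPS19C gave -0.37 (SE 0.48, exact p = 0.5), and RPL7B against RPL7D gave -0.32 (SE 0.46, exact p = 0.6). RPS7A was higher relative to RPS7B by 0.28 (SE 0.24, exact p = 0.2), and RPL17A relative to RPL17B by 0.27 (SE 0.32, exact p = 0.4). In all of these the arrays of the genotypes overlapped. The closest fold changes were those of RPL12A and RPL12C (-0.01, SE 0.49), RPS4A and RPS4D (0.01, SE 0.16) and RPL10aA and RPL10aC (-0.02, SE 0.29). A small difference of fold changes did not mean that the genes ran together. RPL12A and RPL12C differed by -1.36 in their replicate 3 minus 1 values in pad4 and by -0.25 in the double mutant.

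Across the 6 arrays paralogues ran somewhat closer together than unrelated members. The median SD of the within-array difference was 0.29 for the 39 paralogue pairs and 0.37 for the 1089 other pairs. This is a description without a test, since pairs share genes. Probe sets were assigned to a gene by the annotation alone, and whether any also reads a similar paralogue was not tested. The difference between replicates 3 and 1 was apart by 1 or more in 9 paralogue pairs (23.1%) in pad4 and 3 (7.69%) in the double mutant, against 35.8% and 17.7% of the other pairs. All paralogues kept had the same sign of this difference in 10 of 17 proteins in pad4 and in 14 of 17 in the double mutant.

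Some pairs moved almost as 1 gene (the pairs of this and the next paragraph were chosen after their values were seen). RPL7aB (AT3G62870) read 1363, 1515 and 559 in pad4 against 1297, 1112 and 861 in the double mutant, the same shape as RPL7aA, and the SD of their within-array difference was 0.10, with pad4 replicate 3 far below the rest in both. RPS10A and RPS10C followed with an SD of 0.13. RPS14A and RPS14B, for a protein of the 40S platform, and RPS24A and RPS24B had an SD of 0.15 each. In these 3 pairs both genes were higher in replicate 3 than in replicate 1 of both genotypes.

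Other paralogues ran apart. RPS3aA (AT3G04840) read 880, 877 and 792 in pad4 against 829, 894 and 1138 in the double mutant, nearly flat in pad4, where replicate 3 of RPS3aB was far below replicates 1 and 2. Replicate 3 minus replicate 1 of RPS3aA exceeded that of RPS3aB by 0.99 in pad4 and 1.21 in the double mutant. RPL7A lay below RPL7B in this measure by 1.40 in pad4 and 1.12 in the double mutant. RPL10aA lay below RPL10aB by 1.18 and 0.39, and RPL13aA below RPL13aC by 1.11 and 0.33. RPS19B lay above RPS19C by 1.14 and 0.36, and RPS7A above RPS7C by 1.08 and 0.66. In each of these 6 pairs the order of the paralogues was the same in both genotypes. Over all 39 pairs the sign of this difference was shared by the genotypes in 32 (82.1%), near the 83.9% of pairs of different proteins.

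**Figure D4:**
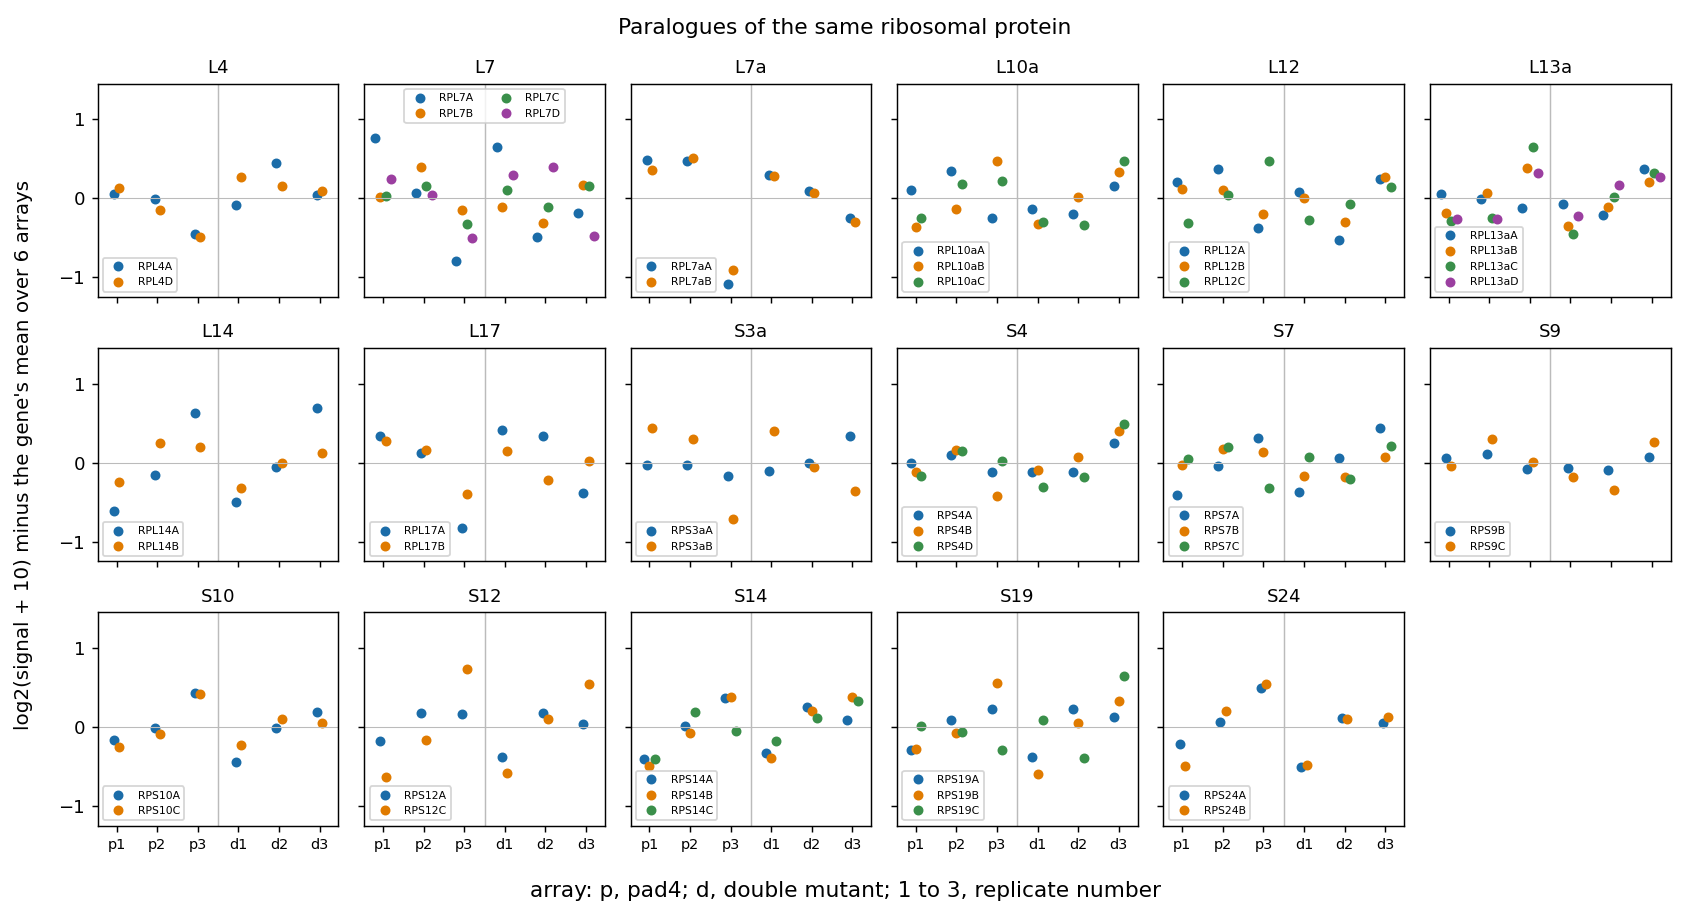
Deviation of each gene from its mean over the 6 arrays (y axis, log2 units) by array (x axis), for the 17 proteins with more than 1 member kept, 1 panel per protein and 1 colour per gene. The points of RPL7aA and RPL7aB nearly coincide on each array, whereas those of RPS3aA and RPS3aB stand apart in replicate 3 of both genotypes.

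None of the other genes of translation was called either. Of 81 further cytosolic ribosomal protein loci, 27 were kept and none was called, with a median of 0.04 and 16 above 0. Their highest value was that of AT2G40010, a gene of the P0 type that carries the acidic stalk, at 23.5 ± 3.04 in pad4 and 47.6 ± 1.56 in the double mutant (n = 3 each). Its log2 fold change was 0.79 (SE 0.23), with no overlap of the genotypes but an adjusted p of 0.79 in limma. It was followed by AT3G09200 of the same type (0.37, SE 0.32), and the lowest were AT5G23900 (-0.26, SE 0.28) and AT5G56710 (-0.22, SE 0.32). Their median of replicate 3 minus 1 was 0.11 (pad4) and 0.44 (double mutant), beside 0.11 and 0.42 for the members.

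Of 29 nuclear genes for plastid ribosomal proteins 5 were kept, none called, with a median fold change of -0.04. They ran from AT2G43030 (-0.09) and AT5G47190 (-0.06) to AT4G01310 (0.15) and AT3G13120 (0.26). Of 39 genes of ribosome assembly and the nucleolus 12 were kept, none called, with a median of 0.15 and 9 above 0. The highest were AT3G15460 (0.68, SE 0.31) and AT3G22660 (0.56, SE 0.52), the lowest AT3G05060 (-0.04) and AT2G40360 (-0.04). Both of the highest were dim. AT3G15460 averaged 14.5 in pad4 and 30.7 in the double mutant. AT3G22660 read 30.3, 40.1 and 1.48 in pad4 against 34.1, 33.5 and 28.9 in the double mutant. The median of replicate 3 minus 1 of the assembly genes was -0.68 (pad4) and -0.02 (double mutant), with 4 and 3 genes at least 1 lower. Its difference from the median of the members was not tested.

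Few other genes of translation could be read. Of 46 initiation, elongation and termination factors 5 were kept, with AT5G12110 (-0.77, SE 0.37) and AT5G35680 (-0.38, SE 0.27) lowest and AT2G40290 (0.29, SE 0.48) and EIF4A-2, an RNA helicase of initiation, (0.24, SE 0.37) highest, none of them called. AT5G12110 was dim, at 30.7, 40.6 and 28.5 in pad4 against 18.9, 4.60 and 28.0 in the double mutant. Of 9 genes of the TOR growth pathway and regulators of ribosomal protein genes, 1 was kept. It was RAPTOR1, a partner of the TOR kinase, at 0.33 (SE 0.35), not called.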

How the data were processed

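The deposited values are linear intensities, 1 signal per probe set. Per the submitters' processing notes the software was MAS5 and GCOS, in versions not given in the sources used here. Each array had a 2%-trimmed mean of 100.0. The members and gene lists were chosen with earlier results of these data known. Members were matched by locus through the platform annotation, the TAIR10.1 table served for names alone, and no coordinates are given because the build is not stated.

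The analysis added 10 to each signal, took log2, left out 64 control probe sets and those with a mean under 20 over 6 arrays, and fitted all 12804 others in limma 3.58.1 (R 4.3.3, lmFit and eBayes, no covariates, two-sided, Benjamini-Hochberg over all of them, threshold 0.05). The precision is limited by 3 arrays per group. Paralogue pairs were tested by exact permutation of the 20 splits of 6 arrays (scipy 1.17.1), other tables were made with Python 3.11.15, pandas 2.3.3 and numpy 2.4.6, and figures with matplotlib 3.10.9.

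The named members are the 6 highest and 6 lowest fold changes, the 4 highest and 4 lowest mean differences between replicates 3 and 1, the 6 widest and 3 closest paralogue pairs and all loci left out. From each pathway list the 2 highest and 2 lowest were taken, and from the marker lists the brightest 2. Exceptions are named in the text. Tested on simulated data for this comparison with 12804 probe sets, 58.9% of changes of 2 on the log2 scale and 0 of 1000 changes of 1 were recovered, with 29 false calls in 5 runs. Alternatives changed the offset, the filter, the scaling, the probe set types, the eBayes options, the block, the stage and the arrays used. Planned descriptions of protein identity between paralogues and of promoter motifs were not run, for want of sequences.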

Additional observations from a re-analysis of the deposited data

How the results depend on the processing

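No member was called under any of 18 alternatives, where 0 to 81 probe sets were called in all. The lowest adjusted p of a member was 0.56 (limma with a replicate block), a fit in which the median of the members was 0.00. That median ran from -0.11 (without both replicate 3 arrays, or without double mutant replicate 3) to 0.10 (stage as a covariate, or the samples labelled 5.10 alone), and from -0.11 to 0.05 when single arrays were left out. The numbers were not taken to pair the samples, since they are not stated to mark a shared batch. The deviations of same-numbered arrays correlated at 0.83, 0.00 and 0.68 for replicates 1, 2 and 3, so arrays numbered 1 and 3 were alike across genotypes. With the replicate block 81 probe sets were called, none of them a member, against 5 in the main fit. Whether the numbers mark a batch was not tested. Of 558 alternative fold changes of the 31 named members, 79 had the opposite sign, none of them called, and the sign of 25 members turned at least once. The sign of the other 6 (RPL4A, RPL4D, RPL7B, RPL13aD, RPS7B and RPS9C) never turned. Changes of the filter, the probe set types, the eBayes options and the block cannot alter these fold changes, so part of the 558 repeat the main values. Stage as a covariate and the samples labelled 5.10 alone also give the same fold changes as each other. These counts therefore overstate how often the sign was put to a check. By scaling, 32 members were above 0 after quantile normalization and 16 after median centring, against 25. Median centring also moved the differences between replicates 3 and 1: the median of the members in pad4 to 0.49, those at least 1 lower in pad4 to 2, and those at least 1 higher to 14 in pad4 and 6 in the double mutant. All probe sets moved with them, to medians of 0.13 (pad4) and 0.14 (double mutant). The offset of the members from all probe sets stayed at 0.36 and 0.49. The shares of all probe sets beside these counts are not given here, so the counts do not set the members apart. Pairs of paralogues whose genotypes did not overlap numbered 2 to 9 when 1 array was left out, 8 without pad4 replicate 3 and 9 without double mutant replicate 3, where fewer arrays make separation easier. The share among pairs of different proteins is not given here for these reduced sets, so the counts do not set paralogues apart. The mean of all probe sets of a locus changed nothing, as each member has 1. In the simulation, changes of 1 on the log2 scale were not recovered with 3 arrays per group, which limits what the genotype comparison could show.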
